A study of Homo sapiens with 8 samples.

Results

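MHC class I antigen presentation was followed through 9 genes, all of them found by symbol among the 19583 rows of the deposited table: HLA-B, HLA-C, HLA-E, HLA-F, B2M, TAP1, TAP2, TAPBP and NLRC5. The genes were picked for their role in the pathway, with earlier results of these data known. All 9 were among the 12645 genes that entered the tests, those whose normalised read count averaged 1 or more. Polyadenylated RNA came from 8 libraries of MDA-MB-231, a human breast cancer line without estrogen or progesterone receptor. The groups were cells labelled shCHD4 at 1% O2, cells labelled shSC (the scrambled hairpin) at 1% O2, cells labelled shCHD4 at 20% O2 and cells labelled shSC at 20% O2, with 2 libraries each and 24 hours of exposure in every group. The study asked how CHD4, a chromatin-remodelling ATPase, bears on the activity of the hypoxia-inducible factors. The sources used here give neither the hairpin sequences nor whether a label stands for 1 clone or a pool of cells.

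Nearly every nucleated cell uses this pathway to show fragments of its own proteins to T cells. The proteasome and cytosolic peptidases cut proteins into peptides, the TAP1 and TAP2 transporter moves the peptides into the endoplasmic reticulum, and tapasin (TAPBP) holds the transporter next to an empty class I molecule until a peptide is bound. A class I molecule pairs a polymorphic heavy chain (HLA-B, HLA-C and their relatives) with the invariant light chain beta-2 microglobulin (B2M). NLRC5 is the transactivator that works at class I promoters through factors bound to the X and Y boxes, and interferons and NF-kB raise the same genes. Loss of class I RNA is a common route by which tumours avoid T cells, while too little class I exposes a cell to natural killer cells.

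CHD4 RNA did not go with its label. CHD4 had 299 and 287 normalised reads in the libraries labelled shCHD4 at 1% O2, against 279.7 and 278 in those labelled shSC, and 293 and 305 under shCHD4 at 20% O2, against 299 and 298 under shSC. The difference was 0.071 at 1% O2, with an adjusted p = 0.129, and 0.0018 at 20% O2, with 0.968 as its adjusted p, so each contrast of labels is one between libraries that carry them. A normalised read count is the number of reads of a gene divided by 1 factor per library, and it is not divided by gene length. The libraries held 24947627 to 31903585 reads assigned to genes. All differences are log2 differences of the value plus 0.5, with 95% intervals from the limma fit across all tested genes, and p is adjusted by the Benjamini-Hochberg method over those genes. Whether both libraries of a group were grown apart is not stated, and p therefore measures a spread that may be technical. The label separated libraries along the first principal component, which held 88.8% of the variance, and O2 along the second, with 7.57%.

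Markers of the line were present in every library. VIM, CD44, FN1, EGFR and AXL summed to between 8340 and 10000 normalised reads under the shCHD4 label and between 7740 and 10700 under shSC, and ESR1 with PGR summed to at most 0.138 under shCHD4 and 0.149 under shSC. VIM made up most of the sum under shCHD4 and was higher there (0.29 at 1% and 0.66 at 20% O2), whereas FN1 was lower (-1.61 and -1.73). The median difference of these 5 markers was -0.802 at 1% O2, with 1 higher and 3 lower, and -0.572 at 20% O2, with 2 higher and 3 lower. The leukocyte list, of which 4 of 6 genes were measured, summed to between 6.94 and 8.52 under shCHD4 and between 167 and 232 under shSC. CD74, the class II invariant chain, made up nearly all of that under shSC, with 166 to 230.3, against 5.08 to 7.04 under shCHD4. PTPRC, which defines leukocytes, was between 0.34 and 0.64 under shCHD4 and between 0.11 and 0.45 under shSC. Luminal epithelial markers summed to between 490 and 549 under shCHD4 and between 426 and 489 under shSC. KRT8 was higher under shCHD4 (2.22-fold at 1% and 1.96-fold at 20% O2), but of the 5 luminal genes tested 1 was higher and 3 were lower at each O2 level, with medians of -0.318 and -0.468. Fibroblast and endothelial markers summed to between 5.39 and 6.68 under shCHD4 and between 4.3 and 5.72 under shSC. The part of these levels in the results was not tested, and in bulk RNA fewer cells of a type cannot be told apart from less RNA per cell.

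The promoters of HLA-B and HLA-C are shown because these paralogs differed in their RNA, and that of B2M because its RNA was lower together with that of HLA-B. The sequences are from RefSeq on GRCh38.p14, another build than the hg19 of the deposited values, and run from 250 bases before to 50 bases after the start site, 5′ to 3′ along the gene's own strand. HLA-B lies at chr6:31357130-31357429 on the minus strand, HLA-C at chr6:31272043-31272342 on the minus strand and B2M at chr15:44711267-44711566 on the plus strand. Capitals mark matches to the NF-kB consensus or to the core of the interferon-stimulated response element, on either strand. They are the reference alleles, which need not be those of this cell line.
HLA-B: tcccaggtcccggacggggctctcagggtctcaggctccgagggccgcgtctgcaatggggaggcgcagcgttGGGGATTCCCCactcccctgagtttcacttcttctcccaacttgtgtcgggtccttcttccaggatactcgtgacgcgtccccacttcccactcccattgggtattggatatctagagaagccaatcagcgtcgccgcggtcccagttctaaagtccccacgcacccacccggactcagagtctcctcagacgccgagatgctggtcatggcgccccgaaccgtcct
HLA-C: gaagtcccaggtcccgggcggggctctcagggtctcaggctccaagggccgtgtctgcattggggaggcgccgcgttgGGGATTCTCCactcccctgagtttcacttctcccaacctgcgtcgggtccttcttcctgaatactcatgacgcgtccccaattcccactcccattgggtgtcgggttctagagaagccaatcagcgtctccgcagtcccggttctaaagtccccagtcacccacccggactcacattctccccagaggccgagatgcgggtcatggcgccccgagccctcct
B2M: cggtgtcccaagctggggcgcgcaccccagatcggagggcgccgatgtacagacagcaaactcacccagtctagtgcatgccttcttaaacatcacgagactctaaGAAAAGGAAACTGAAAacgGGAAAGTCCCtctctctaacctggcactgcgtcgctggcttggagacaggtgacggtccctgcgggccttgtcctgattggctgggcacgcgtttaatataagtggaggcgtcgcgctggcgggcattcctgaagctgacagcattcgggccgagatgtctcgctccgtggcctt

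HLA-B held 2 overlapping matches to the NF-kB consensus, which together form the capital stretch, and HLA-C held 1 at the aligned place. Over 296 aligned bases the promoters were 90.9% identical, and inside that stretch they differed by the substitution C82T, counted from 1 at the first base of the HLA-B sequence, with the HLA-B base first. The B2M promoter held 2 overlapping interferon-response cores, followed by 1 NF-kB match. Of 35116 promoter windows of this length in the table, 11.3% held the NF-kB consensus and 3.57% the interferon-response core. A promoter sequence was matched for 7 of the 9 genes, with HLA-E and NLRC5 as the others. Interferon-response cores were also found in the windows of HLA-F (1), TAP2 (1), TAPBP (2) and 1 of the 2 start sites of TAP1 (2). NF-kB matches were found in TAPBP (1) and at that same TAP1 start site (2). The CRE-like motif TGACG, part of the X box region, occurred once each in HLA-B, HLA-C, B2M and TAP2, against 24.6% of all windows. CCAAT, the core of the Y box, occurred in HLA-B (3), HLA-C (4), HLA-F (2), B2M (1) and the first TAP1 start site (1), against 34.6% of windows. It had no match in TAP2, TAPBP and the second TAP1 start site. The core of the hypoxia response element, ACGTG or GCGTG, occurred once in HLA-B, HLA-F, B2M and the first TAP1 start site, 3 times in the second, and had no match in HLA-C, TAP2 and TAPBP, against 48.4% of all windows. These matches describe letters in the windows and show no binding, and a window without an exact match may hold a variant of the motif.

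HLA-B, which presents peptides to CD8 T cells, had the largest difference between labels of the 9 genes. Its normalised read count was 119.6 and 124 under shCHD4 at 1% O2, against 288 and 282 under shSC, and 115 and 109 under shCHD4 at 20% O2, against 257 and 248 under shSC. All 4 libraries labelled shCHD4 lay far below all 4 labelled shSC, and the groups did not overlap. HLA-B was 2.33-fold lower at 1% O2, a log2 difference of -1.22 (SE 0.0448, adjusted p = 2.05e-14). At 20% O2 it was 2.25-fold lower, a difference of -1.17 (SE 0.0448, adjusted p = 4.25e-14). The call held in every alternative tried, with differences between -1.25 and -1.08 at both O2 levels. In GENCODE v29 HLA-B overlaps 8 other genes, with HLA-C and LINC02571 among those on its own strand. Reads in shared stretches may have been counted elsewhere or dropped.

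HLA-C, the neighbouring classical heavy chain and a ligand of natural killer cell receptors, did not follow. HLA-C had 99 and 103 under shCHD4 at 1% O2, against 98.6 and 104 under shSC, and 99.1 and 98.2 under shCHD4 at 20% O2, against 101 and 93.2 under shSC. The groups overlapped at both O2 levels. At 1% O2 the difference was -0.0038 (95% interval -0.112 to 0.105), with an adjusted p = 0.95. At 20% O2 it was 0.025 (-0.0833 to 0.134), with an adjusted p = 0.665, and at 1% O2 its sign changed with the scaling. With quantile normalization HLA-C was 0.104 higher at 1% O2 (adjusted p = 0.0836) and passed as higher at 20% O2 (0.134, adjusted p = 0.03), where adjusted p ran from 0.03 to 0.813 over the alternatives.

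HLA-E, the non-classical heavy chain that carries leader peptides of other class I chains to the inhibitory receptor NKG2A, was lower by a smaller amount. The counts of HLA-E were 209.6 and 209 under shCHD4 at 1% O2, against 250.3 and 253 under shSC, and 182 and 180.1 under shCHD4 at 20% O2, against 224 and 208 under shSC. At each O2 level both shCHD4 libraries lay below both shSC libraries. HLA-E was 1.2-fold lower at 1% O2 (-0.26, SE 0.0446, adjusted p = 3e-05) and 1.19-fold lower at 20% O2 (-0.26, SE 0.0446, adjusted p = 4.39e-05). HLA-F, a non-classical chain found largely inside cells, had the fewest reads of the heavy chains, 188 to 315 per group. HLA-F stood at 3.5 and 3.04 under shCHD4 at 1% O2, against 6.61 and 4.37 under shSC, and at 3.56 and 3.83 under shCHD4 at 20% O2, against 3.72 and 5.61 under shSC. The difference of -0.64 at 1% O2 passed (adjusted p = 0.00253), and that of -0.28 at 20% O2, where groups overlapped, did not (adjusted p = 0.154). The call at 1% O2 rested on shSC replicate 1, without which the difference was -0.37 (adjusted p = 0.0891, within 0.00036 to 0.0891 over the alternatives). Without shSC 20% O2 replicate 1 the difference at 20% O2 was -0.54 and passed (adjusted p = 0.013, within 0.013 to 0.959). An antisense gene, HLA-F-AS1, overlaps HLA-F, and no source used here says whether reads were counted by strand. HLA-F-AS1 itself had 0.618 to 0.966 under shCHD4 and 0.0336 to 0.0743 under shSC.

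B2M, the light chain that every class I heavy chain needs, was lower too. B2M had 324 and 341 under shCHD4 at 1% O2, against 516 and 520.4 under shSC, and 325 and 319 under shCHD4 at 20% O2, against 516 and 542 under shSC. No shCHD4 library came near the lowest shSC library. B2M was 1.56-fold lower at 1% O2, by -0.64 (95% interval -0.729 to -0.551, adjusted p = 1.2e-10). At 20% O2 it was 1.64-fold lower, by -0.71 (-0.803 to -0.624, adjusted p = 2.63e-11).

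**Figure D1:**
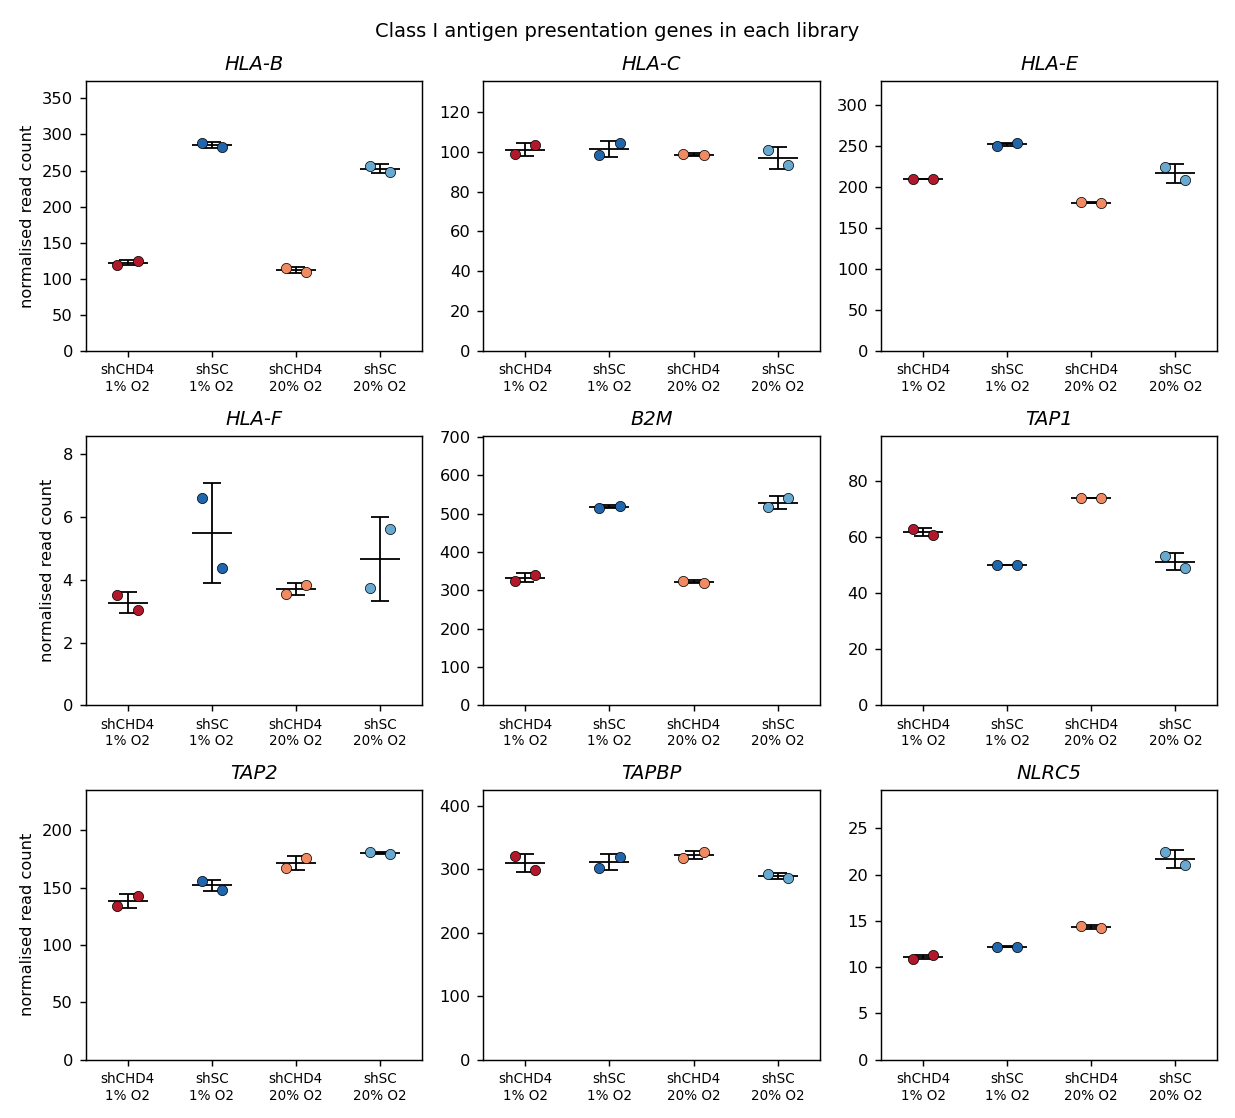
Normalised read counts of the 9 class I genes in the 8 libraries, by hairpin label and O2 level. Points are libraries, horizontal bars are group means and error bars are the SD of 2 libraries. HLA-B and B2M are low in all 4 shCHD4 libraries, HLA-C is level across the groups, TAP1 is highest under shCHD4 at 20% O2 and NLRC5 is highest under shSC at 20% O2.

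The transporter and loading genes were higher, level or slightly lower. TAP1 had 62.7 and 60.8 under shCHD4 at 1% O2, against 49.9 and 49.9 under shSC, and 74.0 and 73.8 under shCHD4 at 20% O2, against 53.3 and 49.1 under shSC. Every shCHD4 library was above every shSC library. TAP1 was 1.23-fold higher at 1% O2, by 0.30 (95% interval 0.189 to 0.418, adjusted p = 5.89e-05). At 20% O2 it was 1.44-fold higher, by 0.53 (0.412 to 0.641, adjusted p = 6.6e-08). PSMB9, which encodes an immunoproteasome subunit, and the non-coding gene PSMB8-AS1 overlap TAP1 on the opposite strand in GENCODE v29, so that some reads counted for TAP1 may come from them.

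TAP2, the partner of TAP1 in the transporter, was level or slightly lower. The values of TAP2 were 134 and 143 under shCHD4 at 1% O2, against 156 and 148 under shSC, and 167 and 176 under shCHD4 at 20% O2, against 181 and 179 under shSC. The difference of -0.14 at 1% O2 passed (adjusted p = 0.0146) and that of -0.07 at 20% O2 did not (95% interval -0.171 to 0.0298, adjusted p = 0.188), and that difference at 20% O2 was 0.0286 with quantile normalization. The call at 1% O2 ended in 4 of 20 alternatives, whose adjusted p ran from 0.00801 to 0.901 overall. Quantile normalization gave -0.0067 (adjusted p = 0.901) and a fit without a variance trend gave an adjusted p of 0.0593. Leaving out replicate 1 of shCHD4 at 1% O2 gave -0.09 (adjusted p = 0.196), and leaving out that of shSC gave -0.10 (adjusted p = 0.118). Of the 50-base windows of TAP2 transcripts, 32.7% also occur in another gene's transcripts, chiefly a read-through gene, so part of its reads may have been counted elsewhere or dropped.

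TAPBP had 321 and 299.7 under shCHD4 at 1% O2, against 302 and 320.5 under shSC, where the groups overlapped, and 318 and 327 under shCHD4 at 20% O2, against 294 and 287 under shSC. TAPBP was 1.11-fold higher at 20% O2 (0.15, SE 0.0456, adjusted p = 0.00572) and differed by -0.0062 at 1% O2 (95% interval -0.102 to 0.0897, adjusted p = 0.907). The call at 20% O2 ended without shCHD4 20% O2 replicate 2 (adjusted p = 0.0527, within 3.77e-05 to 0.0527). At 1% O2 the sign changed with the scaling, and with quantile normalization TAPBP passed as higher (0.152, adjusted p = 0.00561, within 0.00561 to 0.979).

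NLRC5 differed between labels at 20% O2 and did not pass at 1% O2. Its count was 10.9 and 11.3 under shCHD4 at 1% O2, against 12.2 and 12.2 under shSC, and 14.5 and 14.2 under shCHD4 at 20% O2, against 22.4 and 21.0 under shSC. The shSC libraries at 20% O2 stood above all others. NLRC5 was 1.5-fold lower under shCHD4 at 20% O2, by -0.58 (95% interval -0.746 to -0.416, adjusted p = 2.13e-06), and it differed by -0.13 at 1% O2 (-0.295 to 0.0348, adjusted p = 0.138).

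In all, 1 of the 9 genes was higher and 5 were lower under shCHD4 at 1% O2, and 2 were higher and 4 lower at 20% O2. Of all tested genes 77.4% passed at 1% O2 and 75.6% at 20% O2, near the same number in each direction (38.2% higher and 39.2% lower at 1% O2, and 37% higher and 38.6% lower at 20% O2). A share of 6 in 9 is therefore no more than that of other genes. In 7 of the 9 genes the labels did not overlap at 1% O2, and in 7 at 20% O2, beside 88.8% and 86.4% of all tested genes. The median difference of the 9 genes was -0.136 at 1% O2 and -0.256 at 20% O2, beside -0.00671 and -0.0091 over all tested genes.

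Ratios of reads within a library do not depend on the scaling between libraries. The ratio of HLA-B to HLA-C reads was 1.11 to 1.21 in the 4 shCHD4 libraries and 2.54 to 2.92 in the 4 shSC libraries. HLA-B to HLA-E was 0.571 to 0.632 under shCHD4 and 1.12 to 1.19 under shSC, and HLA-B to B2M was 0.343 to 0.369 under shCHD4 and 0.458 to 0.558 under shSC. TAP1 to TAP2 ran the other way, at 0.419 to 0.469 under shCHD4 and 0.273 to 0.336 under shSC. The labels did not overlap in any of these ratios. A two-sided exact permutation test of the label within each O2 level gave p = 0.056 for each (adjusted p = 0.056 over 4 ratios), the smallest that this design allows. The ratios were chosen with the values known, and labels that do not overlap can give only this p, so it adds nothing to the ranges. Reads of these paralogs can be hard to tell apart. In GENCODE v29, 2.12% of the 50-base windows of HLA-B transcripts and 6.17% of those of HLA-C occur in transcripts of another gene. For HLA-E the share was 5.13% and for HLA-F 1.25%. Only exact matches were counted, so windows that differ by a few bases, where reads could be misplaced, are not in these shares. The alleles of this line differ from the reference by an unknown amount.

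**Figure D2:**
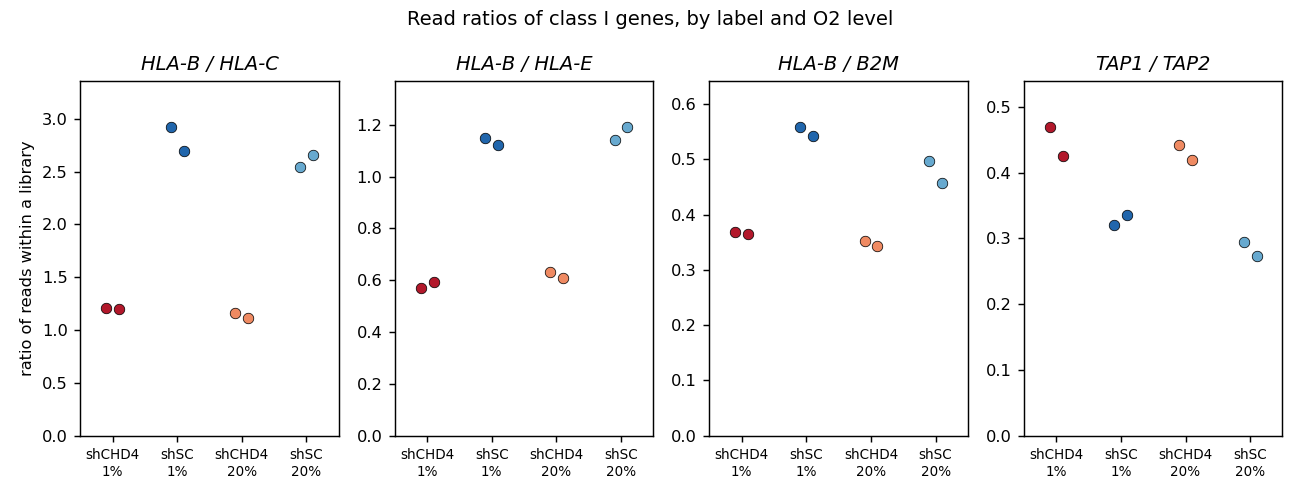
Ratio of the reads of a pair of genes within each library, by label and O2 level, with 1 point per library. HLA-B to HLA-C lies between 1.11 and 1.21 under shCHD4 and between 2.54 and 2.92 under shSC, while TAP1 to TAP2 is higher under shCHD4.

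Levels of different genes can be compared per length only. Here this was normalised reads per kilobase of the joined exons of all protein-coding transcripts of a gene in GENCODE v29. B2M was the most abundant of the 9 genes in each group by this measure, with means of 140.0 under shCHD4 at 1% O2, 218 under shSC at 1% O2, 135 under shCHD4 at 20% O2 and 222 under shSC at 20% O2. HLA-B came next under shSC, at 166 and 147 for 1% and 20% O2. Under shCHD4 the level of HLA-B per kilobase, 71.2 and 65.4, lay among those of HLA-E (80.6 and 69.5), TAPBP (73.9 and 76.9) and HLA-C (65.1 and 63.5). At 1% O2 under shCHD4 the libraries of HLA-B and TAPBP overlapped in this measure. At 20% O2 the HLA-B libraries (63.8 to 66.9) lay just above those of HLA-C (63.2 to 63.8 after rounding). TAP2 and TAP1 followed at 16.9 to 29.2, and NLRC5 and HLA-F stood at or under 2.97. The exon lengths come from another annotation than the counting may have used. Joined exons can also be longer than the transcript in use, by an amount that differs between genes, so the order of close genes may depend on this choice.

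At 1% against 20% O2, 1 of the 9 genes was higher and 3 were lower under the shCHD4 label, where 23% of all tested genes passed (12.3% higher and 10.7% lower). Under shSC 2 were higher and 2 lower, where 35.2% passed (17.4% higher and 17.9% lower). The O2 levels did not overlap in 6 of the 9 genes under shCHD4 and in 5 under shSC, beside 65.7% and 65.5% of all tested genes. The median difference of the 9 genes was -0.057 under shCHD4 and 0.065 under shSC, beside -0.00366 and -0.0108 over all tested genes.

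HLA-E was higher at 1% O2 under both labels, by 0.21 under shCHD4 (1.16-fold, 95% interval 0.118 to 0.306, adjusted p = 0.0024) and by 0.22 under shSC (1.16-fold, 0.126 to 0.313, adjusted p = 0.000933). At 1% O2 its libraries lay above those at 20% O2 within each label. HLA-B was higher at 1% O2 under shSC (0.17, SE 0.0448, adjusted p = 0.00559). The HLA-B call under shSC ended with quantile normalization (0.107, adjusted p = 0.0706, within 0.00251 to 0.0706). Under shCHD4 the HLA-B difference of 0.12 did not pass (95% interval 0.0274 to 0.216, adjusted p = 0.0583), though the groups did not overlap and 4 of 21 alternatives called it. HLA-C differed by 0.036 under shCHD4 (adjusted p = 0.654) and 0.065 under shSC (adjusted p = 0.35), and B2M by 0.044 (adjusted p = 0.481) and -0.029 (adjusted p = 0.624), with intervals for B2M of -0.0451 to 0.134 and -0.119 to 0.06.

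TAP2 was lower at 1% O2 under both labels, by -0.31 under shCHD4 (1.24-fold lower, 95% interval -0.412 to -0.211, adjusted p = 0.000144) and by -0.25 under shSC (1.19-fold lower, -0.346 to -0.145, adjusted p = 0.000635). TAP1 was lower at 1% O2 under shCHD4 (-0.26, 1.2-fold lower, adjusted p = 0.00247) and differed by -0.035 under shSC (adjusted p = 0.654). The difference between these responses of TAP1, the interaction, was -0.22 (95% interval -0.385 to -0.0612) and did not pass (adjusted p = 0.115). Without shSC 20% O2 replicate 1 that interaction was -0.28 and passed (adjusted p = 0.0288, within 0.0288 to 0.348). TAPBP differed by -0.057 under shCHD4 (adjusted p = 0.388) and 0.10 under shSC (adjusted p = 0.0938), and HLA-F by -0.15 (adjusted p = 0.555) and 0.21 (adjusted p = 0.364).

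NLRC5 was lower at 1% O2 under both labels. It was 1.28-fold lower under shCHD4 (-0.36, 95% interval -0.521 to -0.191, adjusted p = 0.00341) and 1.75-fold lower under shSC (-0.81, -0.972 to -0.643, adjusted p = 3.64e-07). Its interaction of 0.45 was the only one of the 9 to pass (95% interval 0.218 to 0.684, adjusted p = 0.0252), where 4.36% of all tested genes passed (2.21% higher and 2.14% lower). The interaction call was kept in 11 of 19 alternatives and ended with no filter on low values (adjusted p = 0.0871), with DESeq2 (adjusted p = 0.119) and without any 1 of 6 libraries (adjusted p = 0.0538 to 0.114), namely either shCHD4 replicate at either O2 level, shSC 1% O2 replicate 1 and shSC 20% O2 replicate 1. Its size stayed between 0.396 and 0.497, and adjusted p ran from 0.0217 to 0.119. Without shSC 20% O2 replicate 1 it was the interaction of TAP1, not that of NLRC5, that passed.

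**Figure D3:**
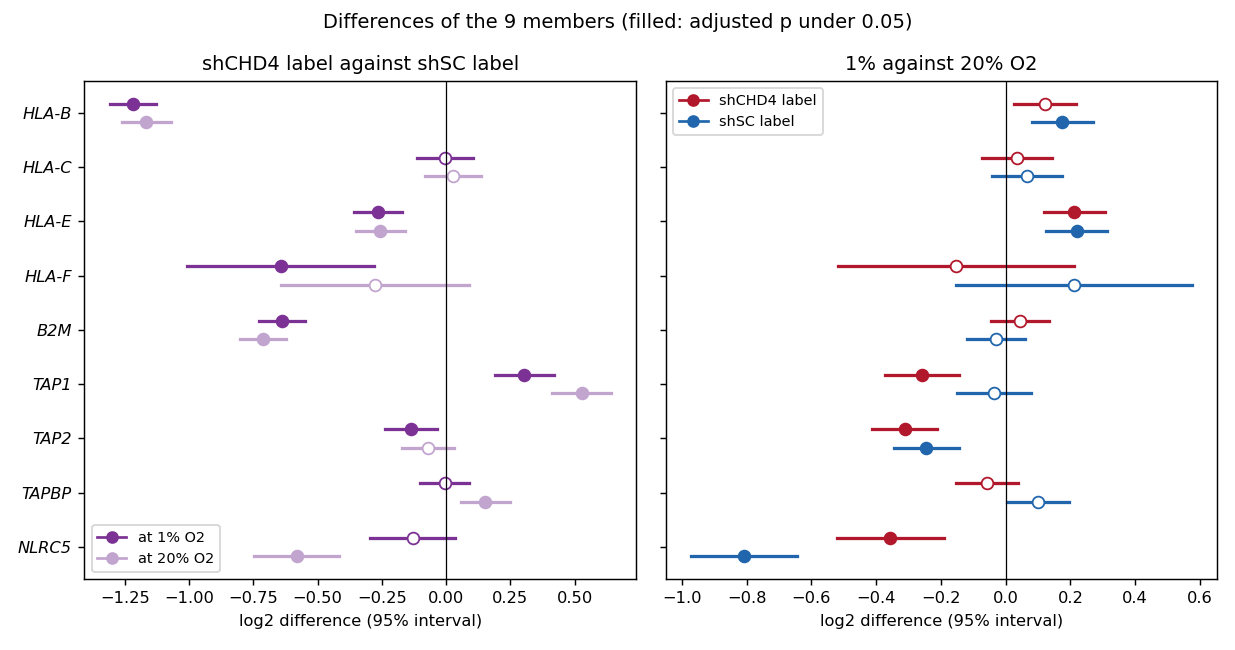
Log2 differences of the 9 genes with 95% intervals, for the shCHD4 against the shSC label at each O2 level (left) and for 1% against 20% O2 under each label (right). Filled points passed the limma test at an adjusted p of 0.05. HLA-B (-1.22 and -1.17) lies farthest below 0 on the left, B2M lies below 0 at both O2 levels, TAP1 lies above 0, and NLRC5 (-0.81 under shSC) lies farthest below 0 on the right.

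Other genes of the pathway were read from lists that follow the route of a peptide. Their counts stand beside 77.4% of all tested genes called between labels at 1% O2 and 75.6% at 20% O2, and 23% and 35.2% called between O2 levels under shCHD4 and shSC. In peptide supply, the 6 genes of the immunoproteasome and PA28 list held 4 higher and 0 lower genes under shCHD4 at 1% O2 (median difference 0.286), and 3 higher and 0 lower at 20% O2 (0.138), shares below those of all tested genes called in either direction. POMP, which helps proteasomes assemble, was 2.22-fold and 2.27-fold higher at 1% and 20% O2. PSMB9, which neighbours TAP1, was 1.91-fold and 1.64-fold higher, PSMB8 was 1.32-fold and 1.18-fold higher. The PA28 subunit PSME1 was 1.12-fold higher at 1% O2 and did not pass at 20% O2 (0.041, adjusted p = 0.444). With 1% O2 the same list held 0 higher and 3 lower genes under shCHD4 (median -0.236), and 0 higher and 5 lower under shSC (-0.324). PSMB9 fell by 0.53 under shCHD4 and by 0.75 under shSC, and PSMB8 fell by 0.25 under shCHD4 and by 0.41 under shSC.

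Of the 3 constitutive catalytic subunits, PSMB6 was higher under shCHD4 at both O2 levels (0.26 and 0.23), PSMB5 at 20% O2 (0.13), and PSMB7 lower at both (-0.69 at 1% and -0.64 at 20% O2). At 1% against 20% O2, 2 were lower under shCHD4 and 3 under shSC, by at most 0.21, PSMB5 among them (-0.21 and -0.19). Among 5 cytosolic and endosomal peptidases 3 were higher under shCHD4 at 1% O2, 4 at 20% O2 and 0 lower. TPP2 was 1.95-fold and 2.11-fold higher, THOP1, which degrades antigenic peptides, 1.91-fold and 1.77-fold higher, and BLMH 1.49-fold and 1.43-fold higher. NPEPPS was higher at 20% O2 (0.14) and differed by -0.032 at 1% O2 (adjusted p = 0.54). At 1% against 20% O2, 1 peptidase was higher and 3 were lower under each label. NPEPPS was the one that rose, by 0.31 under shCHD4 and 0.48 under shSC, and BLMH was lower by -0.31 and -0.37.

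In the endoplasmic reticulum list of 6 loading and trimming genes, 2 were higher and 2 lower under shCHD4 at each O2 level. The chaperones CALR (0.29 at 1% and 0.35 at 20% O2) and CANX (0.14 and 0.19) were higher, and the peptide-trimming aminopeptidase ERAP1 (-0.22 and -0.24) was lower. PDIA3, the disulfide isomerase of the loading complex, was lower at 1% O2 (-0.19) and differed by -0.0375 at 20% O2 (adjusted p = 0.412). The second lower gene at 20% O2 was TAPBPL (-0.47, adjusted p = 0.015), which had only 94 to 140 reads per group. At 1% O2 TAPBPL differed by -0.21 (adjusted p = 0.244). With 1% O2 the only gene of this list to pass was PDIA3, which was higher under shSC (0.25, adjusted p = 0.000131) and differed by 0.095 under shCHD4 (adjusted p = 0.0983). ERAP2, a second trimming aminopeptidase, differed by -0.25 under shCHD4 (adjusted p = 0.0642) and -0.16 under shSC (adjusted p = 0.194).

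Of 7 tested class I-like genes, 3 were higher and 1 was lower under shCHD4 at each O2 level (median difference 0.305 at 1% and 0.357 at 20% O2). FCGRT, the heavy chain of the neonatal Fc receptor, which also pairs with B2M, was lower by -1.15 and -1.06. The natural killer cell ligands MICB (0.96 and 1.06) and ULBP2 (0.74 and 0.91) were higher, as was HFE (0.32 and 0.43), a class I-like regulator of iron uptake. At 1% against 20% O2, 1 was higher and 2 were lower under each label. MICB was lower by -0.30 under shCHD4 and -0.19 under shSC, and MICA, its close relative, by -0.32 and -0.26.

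Of 12 transcription factors known at class I promoters, 2 were higher and 6 lower under shCHD4 at 1% O2 (median -0.177), and 2 were higher and 8 lower at 20% O2 (median -0.367), beside 77.4% and 75.6% of all tested genes called in either direction. NFKB1, which encodes the p50 subunit of NF-kB, was lowest relative to shSC, with 77.8 and 76.2 under shCHD4 at 1% O2, against 261 and 247 under shSC, and 86.8 and 88.2 under shCHD4 at 20% O2, against 239.9 and 231 under shSC. The difference of NFKB1 was -1.72 at 1% and -1.42 at 20% O2. RELA, the p65 subunit, was lower by -0.94 and -0.76. The Y box subunit NFYC was lower by -0.91 and -0.86, while NFYA was higher by 0.55 and 0.66. At 1% against 20% O2, 0 were higher and 4 lower under shCHD4, and 1 higher and 6 lower under shSC, beside 23% and 35.2% of all tested genes. IRF1, an interferon-induced activator, fell by 0.31 under each label, and RELA was higher under shSC (0.26). Of 7 interferon receptors and kinases 1 was higher and 5 lower under shCHD4 at 1% O2, and 2 were higher and 4 lower at 20% O2. IFNGR2, the second chain of the interferon gamma receptor, was 2.61-fold lower at 1% and 2.55-fold lower at 20% O2, and IFNAR1 (-0.46 and -0.45), JAK1 (-0.33 and -0.24) and IFNGR1 (-0.41 and -0.35) were lower by less. Between O2 levels, 1 was higher and 1 lower at 1% O2 under shCHD4, and 2 were higher under shSC. JAK1, the kinase shared by these receptors, was higher under shSC (0.15) and the kinase TYK2 was lower under shCHD4 (-0.15).

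The class II genes run on a separate transactivator, CIITA, and all 6 listed were lower under shCHD4 at both O2 levels. CIITA had 0.0354 to 0.112 under shCHD4 and 5.43 to 11.7 under shSC, and HLA-DRA had at most 0.103 under shCHD4, against 10.1 to 19.0 under shSC. HLA-DRB1 was listed at 0 in every shCHD4 library and had 2.55 to 3.89 under shSC. Between O2 levels, 1 of the 6 was lower under shCHD4 and 5 were lower under shSC. HLA-DMA and HLA-DMB, the peptide exchange factor, were lower under shSC by -0.69 and -1.16. Under shCHD4 they differed by 0.22 (adjusted p = 0.134) and -0.14 (adjusted p = 0.612). HLA-DMB had only 13 and 17 reads per group under shCHD4 at 1% and 20% O2, against 270 and 221 for HLA-DMA. CIITA, HLA-DRA and HLA-DRB1 had at most 5 reads per group there. For HLA-DMB and these genes so few reads leave little room for a fall. Their counts under shCHD4 therefore cannot show whether the response to O2 differed between labels.

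**Figure D4:**
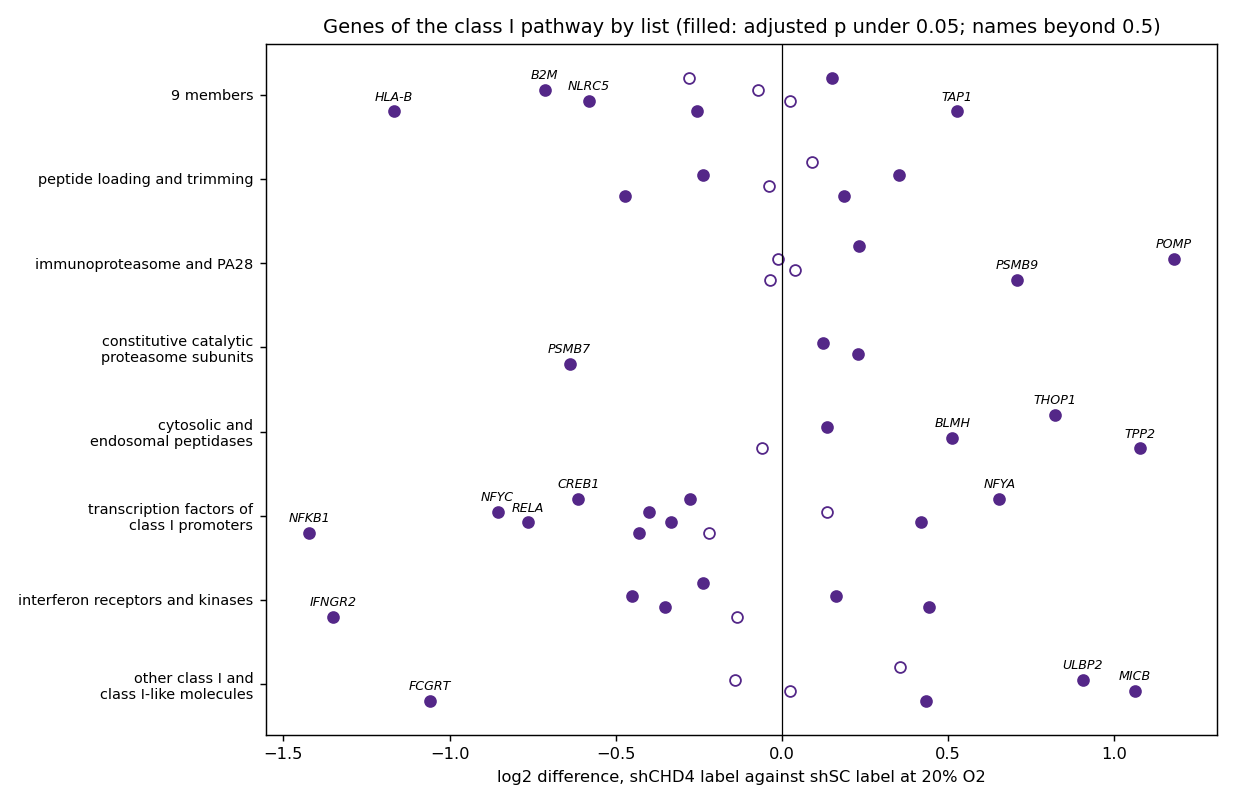
Log2 difference between the shCHD4 and shSC labels at 20% O2 for every tested gene of the class I pathway lists, 1 row of points per list (the vertical offset within a row only separates points). Filled points passed at an adjusted p of 0.05, and genes beyond 0.5 in either direction are named. HLA-B, FCGRT and NFKB1 lie to the left, and POMP, TPP2, MICB and TAP1 to the right.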

How the data were processed

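Polyadenylated RNA of MDA-MB-231 cells was sequenced in 2 libraries for each of 4 groups, set by hairpin label and O2 level. Per the submitters' processing notes, the authors used featureCounts, edgeR, TopHat, Picard 1.127, bcl2fastq 2.17 and FastQC 0.11.2 with the hg19 build. Annotation, strandedness and the handling of multiply mapped reads were not found in those notes. Although labelled FPKM, the deposited values form a signal that is proportional to reads: the authors divided reads by 1 factor per library and not by length. Dividing by the smallest step returned whole reads, within 0.01, for 100% of values. Library totals were 24947627 to 31903585 reads.

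Values were tested as log2(value + 0.5), which understates folds of low genes, with limma 3.58.1 (R 4.3.3). The 12645 genes with a mean of 1 or more were fitted with 4 group means and a trended variance, and calls were two-sided at a Benjamini-Hochberg adjusted p of 0.05. Alternatives were other pseudocounts, filters and scalings, edgeR 4.0.16 and DESeq2 1.42.0 on the recovered reads, fits of 2 groups, a replicate block and the removal of each library. The code was tested on simulated data. From each pathway list the text names up to 4 genes by smallest p between labels and up to 2 between O2 levels, and 1 gene of the class I-like list is not reported here. The genes, lists and motifs were chosen with earlier results of these data known, and the ratios and overlapping genes after values were seen. With 2 libraries against 2, exact permutation cannot reach a p under 0.33, so it was not used for single contrasts.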

Additional observations from a re-analysis of the deposited data

Results flagged for a closer look

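NLRC5 stood out because its response to oxygen differed between the labels by a test of the difference itself. It fell at 1% O2 by 0.36 on the log2 scale under shCHD4 and by 0.81 under shSC, and the interaction was 0.45 (limma adjusted p = 0.0252). The other 8 genes did not pass that test. The call held in 11 of 19 alternatives, with adjusted p from 0.0217 to 0.119, and it ended with no filter on low values, with DESeq2 and without any 1 of 6 libraries.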

How the results depend on the processing

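Of 895 differences of the 9 genes recomputed under the alternatives, 850 kept their sign and their side of the threshold, 15 lost the call, 7 gained it and 23 changed sign, none of them for a difference that had passed. Those sign changes were as follows. With quantile normalization, which moved the median of all genes by 0.0694 at 20% and 0.0596 at 1% O2 between labels, TAP2 at 20% O2 was 0.0286, HLA-C at 1% O2 0.104, TAPBP at 1% O2 0.152, and the interactions of HLA-B and HLA-E 0.00339 and 0.0215. At 1% O2 between labels HLA-C and TAPBP were 0.00477 and 0.0024 with TMM factors and 0.00428 and 0.00281 with edgeR. Leaving out 1 library gave -0.0612 to 0.486 for HLA-F, -0.0946 to 0.0249 for TAP1 and -0.064 to 0.0052 for B2M with O2 under shSC. It gave -0.0316 to 0.0824 for HLA-C at 20% O2, -0.0442 to 0.0366 for HLA-C and -0.0549 to 0.0425 for TAPBP at 1% O2 between labels, and interactions of -0.0862 to 0.0278 for HLA-C and -0.0631 to 0.0473 for HLA-E. The cause was not tested.

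Over all genes, the 2903 called with O2 under shCHD4 became 1920 with no filter on low values, 1815 without a variance trend and 1326 to 3468 with 1 library left out. The 551 interactions became 155 with no filter, 155 without a variance trend and 245 to 994 with 1 library left out. The 1 member called in the interaction became 0 with no filter, 0 with DESeq2 and 0 to 1 with 1 library left out. The deviations of same-numbered libraries were weakly correlated (-0.121 to 0.124). The correlations were 0.0703 and 0.124 between labels at 1% and 20% O2. Between O2 levels they were -0.121 under shCHD4 and -0.0842 under shSC. With 2 libraries per group these values cannot settle whether the numbers pair the samples. With the replicate block 4 and 4 members passed with O2 under shCHD4 and shSC, 6 and 6 between labels at 1% and 20% O2, and 1 in the interaction. With the numbers crossed in shCHD4, chosen after seeing the data, 5 members and 2972 genes passed with O2 under that label. HLA-F is limited by depth, with 188 to 315 reads per group, and does not pass a minimum mean of 5.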

Other observations

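The genes whose log2 values followed NLRC5 most closely over the 8 libraries were TLR3 (r = 0.994), MLST8 (0.984), RMDN3 (0.982), GBP4 (0.981) and PPAP2B (0.98), a description that rests on libraries in 4 groups. TLR3, a sensor of double-stranded RNA, was the only gene outside the 9 with r above 0.99. For HLA-B, whose values differed mainly between the labels, 529 genes had r above 0.99, and the 5 closest were TAGLN, SLC25A37, ZFP69B, LIF and ATF4.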
